A study of Mus musculus with 4 samples.

Results

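The regions described here are 813 stretches of open chromatin, each at least 500 bp wide, that were called in DN3 thymocytes of littermate control mice and had no overlapping region, not even of 1 bp, in DN3 thymocytes of Scd1-deficient mice. They were chosen by their width and by the absence of an overlapping call, from the authors' peak lists on chromosomes 1 to 19 and X, so the loss of the call in Scd1-deficient DN3 cells is how they were selected and not a result. They make up 1.62% of the 50125 control DN3 regions of that width and belong to a list of 76814 regions of any width, out of 251124 in the 4 lists of the series. Open chromatin was mapped by ATAC-seq, in which the Tn5 transposase cuts and tags accessible DNA, in untreated primary mouse cells. The 4 libraries were DN3 thymocytes of Scd1-deficient mice, DN3 thymocytes of littermate controls, naive CD4 T cells of Scd1-deficient mice and naive CD4 T cells of littermate controls, with 1 library in each group. DN3 cells were enriched from the thymus by bead depletion and then flow sorted as lineage-negative cells with CD25 but without CD4, CD8 or CD44, and naive CD4 T cells came from the spleen through a bead kit. The sample titles mark the controls as HZ, which the labels do not spell out, and the sources used here do not give the age, strain, number of animals or deleted part of Scd1.

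DN3 is the thymocyte stage at which the T cell receptor beta chain gene is rearranged and tested through the pre-T cell receptor, under Notch signals. Much of the open chromatin of a cell lies at gene starts that many cell types share, and distal regions such as enhancers differ more between cell types. Scd1 is a stearoyl-CoA desaturase, which makes monounsaturated fatty acids in the endoplasmic reticulum. In the peak lists used here a region carries a fold, the ratio of its summit pileup of fragments to the background around it, and a −log10 q, which grows with depth and is comparable only within a list.

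Few of these regions covered a gene start, and the promoters below are shown because they carry the 6 strongest such calls that took in at least 200 of the 250 bases before the start. Each line gives the 250 bases upstream of the listed start in 5′ to 3′ direction of the gene (RefSeq, GRCm38.p6, the assembly of mm10). Capitals mark matches to short words searched on both strands. The general promoter words were the GC box, spelled GGGCGG, the TATA box, spelled TATAAA, and the CCAAT box, which is named by its letters. The words of T cell factors were CTTTGA for the TCF and LEF family, TGTGGT for RUNX factors and CCGGAA for ETS factors. The E-box, bound by E proteins, was searched as CAGCTG, and it was also searched in the form CACCTG. Matches that overlapped were each counted, and a match is a description of the letters and not a shown binding site.
Msh4: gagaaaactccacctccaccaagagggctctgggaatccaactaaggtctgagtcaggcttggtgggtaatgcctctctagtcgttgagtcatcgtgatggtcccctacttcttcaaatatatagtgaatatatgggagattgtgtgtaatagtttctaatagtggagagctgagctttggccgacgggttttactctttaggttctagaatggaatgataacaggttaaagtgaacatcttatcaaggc
C1rb: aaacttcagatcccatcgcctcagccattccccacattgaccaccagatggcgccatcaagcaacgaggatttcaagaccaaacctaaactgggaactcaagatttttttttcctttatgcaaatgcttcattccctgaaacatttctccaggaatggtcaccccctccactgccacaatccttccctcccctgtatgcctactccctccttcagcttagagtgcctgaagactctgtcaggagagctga
Tmem45a: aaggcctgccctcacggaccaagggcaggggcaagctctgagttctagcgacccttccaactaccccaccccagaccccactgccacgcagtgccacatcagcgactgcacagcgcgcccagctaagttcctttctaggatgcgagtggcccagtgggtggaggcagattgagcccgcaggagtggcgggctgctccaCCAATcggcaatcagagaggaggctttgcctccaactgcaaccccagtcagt
Sall1: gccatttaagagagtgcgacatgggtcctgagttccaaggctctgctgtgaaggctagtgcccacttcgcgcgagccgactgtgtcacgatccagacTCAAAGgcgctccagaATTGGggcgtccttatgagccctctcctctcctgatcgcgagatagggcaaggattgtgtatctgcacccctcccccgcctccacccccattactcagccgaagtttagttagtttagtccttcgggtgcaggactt
Wnt3a: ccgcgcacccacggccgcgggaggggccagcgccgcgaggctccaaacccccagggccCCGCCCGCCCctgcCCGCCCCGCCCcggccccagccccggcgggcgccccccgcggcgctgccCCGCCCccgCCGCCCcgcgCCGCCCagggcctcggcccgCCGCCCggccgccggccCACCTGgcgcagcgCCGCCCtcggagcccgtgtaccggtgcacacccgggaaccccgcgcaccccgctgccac
Lgi1: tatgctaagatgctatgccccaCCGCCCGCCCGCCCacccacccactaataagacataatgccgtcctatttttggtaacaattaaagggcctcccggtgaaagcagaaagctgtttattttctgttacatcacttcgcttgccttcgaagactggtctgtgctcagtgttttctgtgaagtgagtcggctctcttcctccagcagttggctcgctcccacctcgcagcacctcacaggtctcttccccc

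The Msh4 promoter (chr3:153904892-153905141, minus strand), of a meiotic recombination gene, lay under a 604 bp region with a −log10 q of 19.5, and the C1rb promoter (chr6:124570180-124570429, plus strand), of a complement component gene, under a 681 bp region with 13. Neither holds a match to a motif searched, and they have 4 and 3 CpG dinucleotides in 250 bases. Tmem45a (chr16:56886164-56886413, minus strand) followed with a −log10 q of 9.86, and Sall1 (chr8:89044163-89044412, minus strand), which encodes a zinc finger factor of organ development, with 9.19. Their promoters have 10 and 13 CpG. The Wnt3a promoter (chr11:59290752-59291001, minus strand), of a Wnt ligand, has 41 CpG, a G and C content of 87.6% and 9 GC boxes under a 944 bp region with a −log10 q of 7.8. The Lgi1 promoter (chr19:38264437-38264686, plus strand), of a secreted neuronal protein, has 10 CpG and 3 GC boxes, with a −log10 q of 6.98.

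In all, 16 listed promoters of 16 protein-coding genes had at least 125 of their 250 upstream bases inside a wide control-only region. The other 10 were Gabrq, Zfp385b, Tafa4, Cacna2d3, Hs6st2, Scnn1b, Aatk, Slco2a1, Tnfrsf9 and Fcer2a, with −log10 q from 2.22 to 9.86. Zfp385b tied with Lgi1 in strength, and only 164 upstream bases of Gabrq were covered. The 16 promoters had a median of 11 CpG, against 17 for the 11957 promoters under wide control regions with a counterpart and 10 for all 21045 listed promoters. The GC box was in 43.8% of the 16, against 63.9% of the promoters under regions with a counterpart and 43.1% of all. The E-box CACCTG was in 31.2%, against 15.9% and 17.0%, and CAGCTG in 12.5%, against 11.6% and 12.2%. The CCAAT box was in 31.2%, against 35.1% and 35.6%, the TATA box in 6.25%, against 5.08% and 11.7%, and CTTTGA in 6.25%, against 9.54% and 12.8%. The RUNX and ETS words were in 0 of 16, which allows a share of up to 18.8% (3 counts in 16), while TGTGGT was in 9.93% and CCGGAA in 23.2% of the promoters under regions with a counterpart, and in 12.2% and 15.1% of all. With so few promoters these shares are descriptions. Some of these genes had other open chromatin within 1 kb of a listed start in the Scd1-deficient DN3 list as well: Tnfrsf9, the costimulatory receptor 4-1BB, had a region of −log10 q 95.2 there and 152 in the control list, and Aatk had 31.9 in Scd1-deficient cells and 40.3 in controls. Fcer2a had 11.1 and 10.4, Sall1 6.91 and 9.19, Msh4 3.83 and 19.5, and Lgi1 2.95 and 6.98. The other genes of the 16 had no region within 1 kb of a listed start in the Scd1-deficient DN3 list.

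The regions were weak members of their own list, a description only, since the same contrast chose them. Their −log10 q had a lowest value of 1.71, a median of 6.98 and a highest of 52.6, and the wide control regions with a counterpart had a median of 61.2. At their summits lay 13 to 214 fragments, with a median of 26, against a median of 107 in regions with a counterpart. The fold had a median of 3.67, against 8.57. The width ranged to 1353 bp with a median of 596 bp, against a median of 908 bp. The pileup was at or under 26 fragments, the 5th percentile of wide Scd1-deficient DN3 regions, in 441 of 813 (54.2%), and in 3.23% of the regions with a counterpart. The background pileup, which stands in for depth, was 4.47 fragments in the Scd1-deficient DN3 library and 4.72 in the control, so the library that lacks these calls was slightly shallower. The part of depth in the calls was not tested. By strength, regions without a counterpart were 35.9% of the wide control regions with a −log10 q under 5, 12.9% of those from 5 to 10, 3.19% from 10 to 20 and 0.351% from 20 to 60. In the other direction 602 of 48740 wide Scd1-deficient DN3 regions (1.24%) had no control counterpart. These were weak as well, with medians of 5.79 for the −log10 q in their own list, 22 fragments, a fold of 3.47 and a width of 586 bp.

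**Figure D1:**
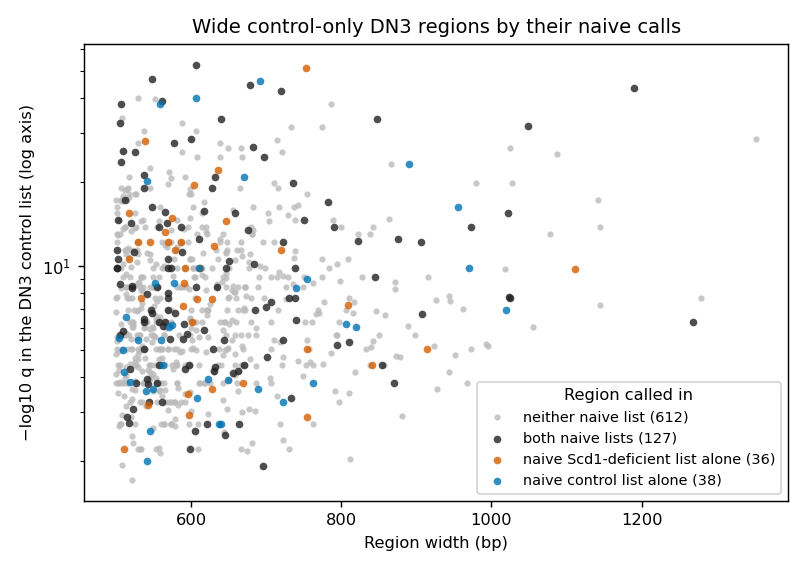
Width (x axis, bp) and −log10 q in the DN3 control list (y axis, log scale) of the 813 wide control-only DN3 regions. Each point is 1 region, coloured by whether it was called in both naive CD4 lists (127), in the Scd1-deficient one alone (36), in the control one alone (38) or in neither (612); most points lie under 700 bp and a −log10 q of 20.

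At the width limit, 6 regions were exactly 500 bp wide, the strongest with a fold of 6.29 and a −log10 q of 17.2, and the strongest of 8 control-only regions of 499 bp, just outside, had a fold of 4.74 and a −log10 q of 21.8. At the overlap limit, the smallest gaps to a Scd1-deficient region were 3, 4 and 11 bp, and regions that shared only 1 or 4 bp with one fell outside. Gaps of at most 100 bp were few (11 of 813), and 88 were of at most 500 bp and 167 of at most 1000 bp. The median gap was 4362 bp and the largest 300117 bp. A Scd1-deficient-only region lay within 1000 bp of 33 of the 813.

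**Figure D2:**
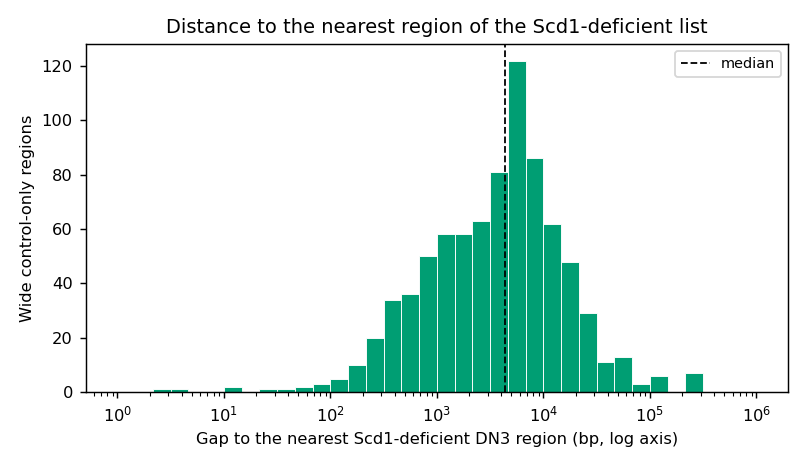
Number of wide control-only DN3 regions (y axis) by the gap to the nearest region of the Scd1-deficient DN3 list (x axis, bp, log scale). The dashed line is the median of 4362 bp, and 787 of the 813 gaps are at most 50000 bp.

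Wide control-only regions lay mostly inside genes and rarely at their starts. Of the 813, 460 (56.6%, Wilson 95% interval 53.2 to 59.9) had their summit inside a protein-coding gene away from its start, 295 (36.3%, 33.1 to 39.6) were intergenic, and 58 (7.13%, 5.56 to 9.11) lay within 1 kb of a gene start or, for genes with no listed start, of either end. The matching shares of the 49312 wide control regions with a counterpart were 39.7%, 32.8% and 27.5%. The intervals cover counting error only, and no test was possible with 1 library in each group. Strength also differed between these sets, and among regions with a counterpart and a −log10 q under 60, 12.2% (11.8 to 12.7) lay at a gene start or end. At a −log10 q under 5 the share was 6.69% (4.16 to 10.6) without a counterpart against 11.5% (8.81 to 14.9) with one, and from 5 to 10 it was 8.58% (6.04 to 12.1) against 10.4% (9.18 to 11.7). From 10 to 20 it was 7.26% (4.29 to 12) against 11.4% (10.6 to 12.3), and the intervals overlapped in these 3 classes. Of the 57 strongest control-only regions, with 20 to 60, 0 lay there, which allows a share of up to 5.26% by the limit of 3 counts in the total (Wilson upper bound 6.31%), against 12.8% of those with a counterpart. The share inside genes was above that of regions with a counterpart in each of the 4 strength classes, from 59.4% against 48.8% in the weakest to 52.6% (39.9 to 65.0) against 48.4% (47.7 to 49.2) in the strongest, and the intervals overlapped in each of the 4 classes. The regions called in the Scd1-deficient DN3 list alone lay inside genes in 53.5% (49.5 to 57.4), between genes in 42.2% (38.3 to 46.2) and at a gene start or end in 4.32% (2.96 to 6.25), with intervals that overlap those of the control-only regions. The median distance to the nearest gene start or end was 19080 bp, against 12250 bp for regions with a counterpart.

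**Figure D3:**
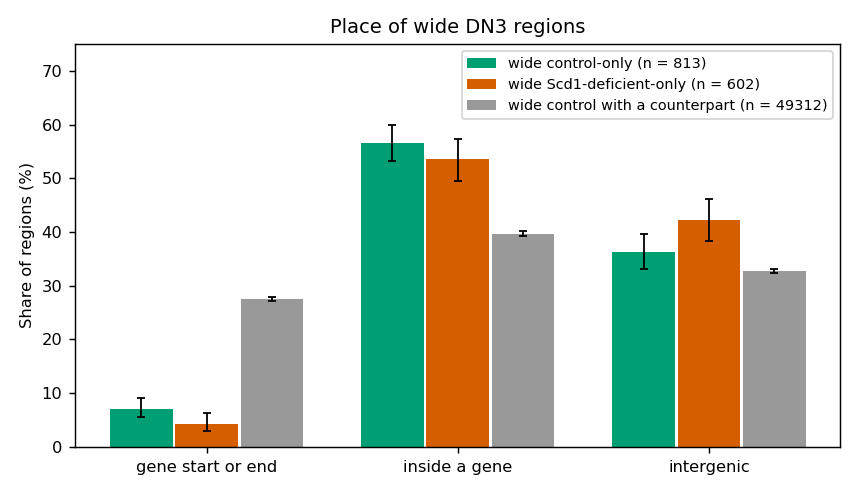
Share of regions (y axis, %) at a gene start or end, inside a gene or intergenic, for the 813 wide control-only DN3 regions, the 602 wide Scd1-deficient-only ones and the 49312 wide control ones with a counterpart. Bars are shares and lines Wilson 95% intervals; the share at a gene start or end is 7.13% and 4.32% in the first pair and 27.5% in the last.

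The strongest region, of 607 bp, lay inside Zfp516, a zinc finger gene on chromosome 18 (chr18:82975741-82976347), with 74 fragments at its summit, a −log10 q of 52.6 and 11.1 as its fold. It was also called in both naive lists, with 26.8 in Scd1-deficient and 19.6 in control cells. The next lay inside Nudt9, an ADP-ribose pyrophosphatase gene (chr5:104057722-104058474), with 68 fragments, a fold of 12.1 and a −log10 q of 51.3. Of the naive lists it was in the Scd1-deficient one, with 17.7. A 548 bp region 12.9 kb from the start of Gabrr1, a GABA receptor subunit gene (chr4:33119088-33119635), had 46.7 and was again in both naive lists, with 66.2 in Scd1-deficient and 41.4 in control cells.

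The fourth lay inside Nfatc3 (chr8:106076627-106077318), which encodes a calcium-regulated factor of thymocytes, with 73 fragments and a −log10 q of 46.1. It was called in the naive control list, with 19.2, and not in the naive Scd1-deficient one, so it was called in both control libraries and in neither Scd1-deficient one. The nearest DN3 region of the Scd1-deficient list was 0.865 kb away. Regions inside Cfap61 (44.5), a gene of cilia, Stk31 (43.4), a germ cell gene, and Numa1 (42.2), which encodes a spindle protein, were each called in both naive lists. Regions inside Prelid2 and 4921504E06Rik both had 40.1, and one 159 kb from the start of Ctnnb1, the beta-catenin gene, had 39.5. Of these last, the one inside 4921504E06Rik was in the naive control list, with 6.29, and the other 2 were in neither.

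The widest regions were mostly weaker than the 10 strongest, but not than the set as a whole. With a minimum width of 750 bp the median −log10 q was 7.01, against 6.98 over all 813. The widest, of 1353 bp, lay 24.4 kb from 8030462N17Rik on chromosome 18 with a −log10 q of 28.5, and those of 1279 bp inside Dnah12 and 1269 bp 138 kb from the start of Vrk1 had 7.67 and 6.31. The Stk31 region, the fourth widest at 1190 bp (chr6:49397590-49398779), was the only one among both the 10 strongest and the 10 widest, and no other DN3 control region of at least 500 bp lay within 10 kb of that gene. The others were 1163 bp inside Cbfa2t3 (3.67), 1145 bp each 287 kb from an end of Saraf (13.8) and inside Kcp (7.26), 1142 bp near Arl13a (17.2), 1111 bp inside Aff1 (9.73) and 1087 bp inside Thrb, a thyroid hormone receptor gene (25.1).

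At gene starts and ends, the strongest after Msh4 was a 782 bp region 0.717 kb from a start of Sgk1, a kinase gene (chr10:21995383-21996164). It had 98 fragments over a high local background, hence a fold of 2.84, and a −log10 q of 17.0. Naive regions that overlapped it had 250 in the Scd1-deficient and 268 in the control list, though their summits may lie elsewhere. A Scd1-deficient DN3 region lay 328 bp away. Regions at Lgals1 (15.7), Wfdc18 (15.5) and Pcdhga12 (14.2) followed. One lay 0.407 kb from an end of Malt1, the paracaspase of NF-kB signalling, with 13.8. Those at Bnip3l and C1rb had 13, and those at Mcat and Bdnf, the neurotrophin gene, 12.2. From the Bdnf region the nearest Scd1-deficient DN3 region was 216 kb away, against 29.4 kb from Wfdc18 and 57.0 kb from C1rb. Bdnf, Wfdc18 and C1rb had no other DN3 control region of at least 500 bp within 10 kb.

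Of 21631 protein-coding genes, 748 (3.46%) had a wide control-only region in the body or within 10 kb, and 560 (2.59%) had a wide Scd1-deficient-only one. Most had exactly 1 (702 genes), 44 had 2, and En1 and Lpp had 3. Genes with such a region were long, with a median of 51358 bp against 21730 bp for genes with a wide region called in both. Of the 748, 707 also had a wide DN3 region with a counterpart and 70 also a wide Scd1-deficient-only one. Over all 21631 genes these counts were 16426 and 560, and gene length was not matched. The 3 regions of En1, a homeobox gene of brain development, lay within it and on either side (chr1:120593249-120593855, chr1:120604566-120605291 and chr1:120613774-120614829), with −log10 q of 5.0, 7.63 and 6.02, beside 2 wide regions with a counterpart. The 3 of Lpp, a gene of focal adhesions, had 9.11, 3.47 and 16.3, beside 21 with a counterpart. All 6 were in neither naive list, as were 75.3% of all wide control-only regions. Clustering was slight, since 9.1% (7.31 to 11.3) of the regions had another within 50 kb, and 7.94% (7.71 to 8.18) of the wide regions with a counterpart had one.

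Around genes of T cell receptor signalling, 7 of 167 wide DN3 control regions lacked a counterpart (4.19%, 2.05 to 8.4), against 1.62% over all. They lay at 6 of 24 genes, while 1 of 24 had a Scd1-deficient-only region. Background shares over all genes were 3.46% and 2.59%, and the median gene of this list is 50975.5 bp long, against 17329 bp over all. In each gene list, a region near several listed genes was counted for each of them. The 1.62% has no such repeats and includes regions far from any gene. Inside Prkcq, which encodes protein kinase C theta (chr2:11254076-11254715), a 640 bp region had 52 fragments, a fold of 9.26 and a −log10 q of 33.6. Naive regions that overlapped it had 121 in the Scd1-deficient and 175 in the control list, though their summits may lie elsewhere.

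Nfatc1 had 1 region inside, with a −log10 q of 4.22, and 1 nearby with 25.9, both called in both naive lists. The Malt1 region was also in both naive lists, with 31.8 in Scd1-deficient and 21.5 in control cells. Cd6, a surface receptor that modulates T cell receptor signals, had a region with 19.8 (chr19:10818304-10819013) that was in neither. Of all 7, including the Nfatc3 region described above, 5 were in both naive lists, 1 in the control one and 1 in neither. Both naive lists held 15.6% of the 813 control-only regions and 64.7% of all wide DN3 control regions. With 7 regions this is a description only.

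T lineage transcription factors had 6 regions at 6 of 25 genes. That is 2.56% (1.18 to 5.48) of the 234 wide control regions around them, against 1.62% over all. A Scd1-deficient-only region lay at 7 of the 25, and over all genes the 2 shares were 3.46% and 2.59%. The median gene of this list is 81773 bp long, against 17329 bp over all. Gata3, a factor needed from the earliest T cell stages, had a 552 bp region 3.12 kb from a start, with 113 fragments, a fold of 1.96 and a −log10 q of 8.71. It was also called in the naive control list alone, with 3.02, and a Scd1-deficient DN3 region lay 0.172 kb away. Bach2 (9.86), a quiescence factor, had one outside the gene that was in both naive lists, and Foxp1 (9.31) an internal one that was in neither. Satb1, a chromatin organizer, had one with 4.41 that was in the naive Scd1-deficient list, with 4.13. Tcf12 (3.53) and Runx1 (3.41) had weak ones. Notch and pre-T cell receptor genes had 1 of 163 (0.613%), inside Notch1, with 5.55 and in neither naive list.

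Fatty acid synthesis and desaturation genes had 2 of 113 wide control regions (1.77%), inside Mlxip (12.2), which encodes a glucose-sensing factor, and Acsl3 (5.55), an acyl-CoA synthetase gene. Scd1 had none, and the share over all wide control regions was 1.62%. A Scd1-deficient-only region lay at 4 of the 28 genes of this list (14.3%), against 2.59% of all genes. The median gene of this list is 47323.5 bp long, against 17329 bp over all. Fatty acid oxidation genes had 1 of 88 (1.14%), in Cpt1a (5.37), the carnitine palmitoyltransferase. Cholesterol synthesis and uptake genes had 2 of 50 (4.0%, 1.1 to 13.5). Neither was in a naive list, which held for 75.3% of all wide control-only regions. Within 5 Mb of Scd1 there were 4 of 421 wide control regions (0.95%, 0.37 to 2.42), at −log10 q from 4.86 to 20.6. They lay inside Slit1 and Cyp2c23, 76.9 kb from the start of Hif1an and 58.9 kb from an end of Btrc, the closest of them 232 kb from Scd1.

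AP-1 and immediate early genes had 3 of 55 (5.45%, 1.87 to 14.9), against 1.62% over all. A Scd1-deficient-only region lay at 0 of the 18 genes, too few to set apart from the 2.59% of all genes. Of the 3, 2 were counted for Nr4a3 (5.34 and 4.38), an orphan nuclear receptor gene induced by T cell receptor signals, and 1 for Egr3 (6.45). The Nr4a3 region with 5.34 reached the 10 kb window only with its edge, since its summit lay 10.1 kb outside the gene. Cell cycle and survival genes had 3 of 111, among them those at Cdk6 (6.54) and at Bcl2l11 (2.91), which encodes the death factor BIM. The list of Wnt and beta-catenin genes, which leaves out Wnt3a, had 1 of 93, near Gsk3b (4.41). Helper and innate-like genes had 1 of 109. B cell genes had 2 of 65, both at Fcer2a, and myeloid genes 2 of 59, at Irf8 (4.7) and Spi1 (2.94), and Spi1 is also counted among the progenitor genes (1 of 87). The list of naive homing and quiescence genes had 0 of 62, which allows up to 4.84% by the limit of 3 counts (Wilson upper bound 5.83%). Bach2, Foxp1 and Satb1, which had regions, were counted among the T lineage transcription factors and are not in that list. Housekeeping genes had 0 of 52, which allows up to 5.77% (Wilson upper bound 6.88%). Each list held 7 such regions or fewer, and genes named beyond the 3 strongest of a list were picked after their values were seen.

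**Figure D4:**
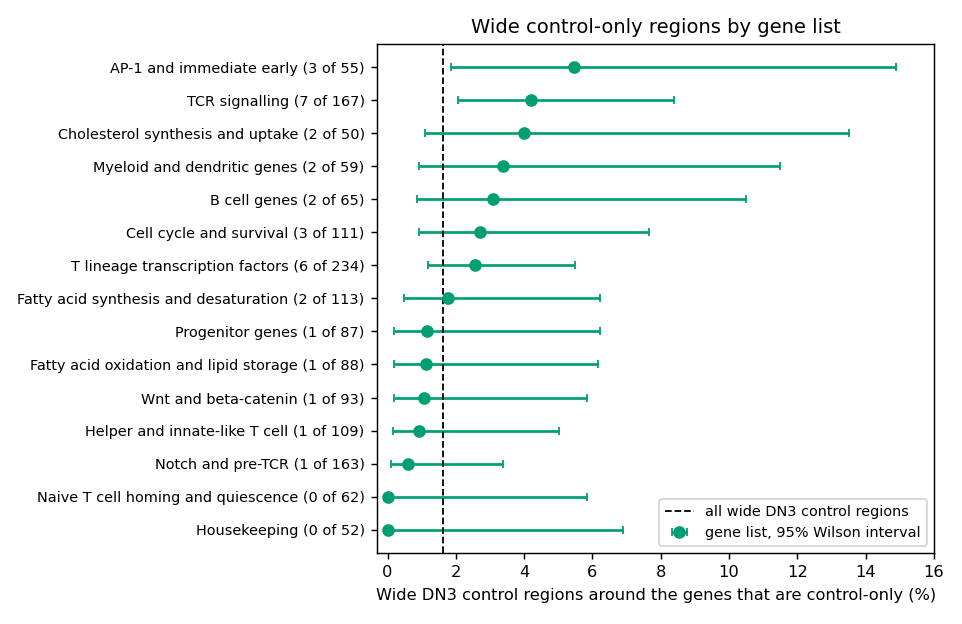
Share (x axis, %) of the wide DN3 control regions in or within 10 kb of the genes of each list (y axis) that had no counterpart in the Scd1-deficient DN3 list, with counts in brackets. A region near several genes of a list is counted for each of them, whereas the dashed line has no such repeats. Points are shares, lines Wilson 95% intervals and the dashed line the 1.62% over all wide DN3 control regions; the highest shares are 5.45% for AP-1 genes, from 3 regions, and 4.19% for T cell receptor signalling genes, from 7.

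The label of DN3 cells was checked by markers. Of 10 DN3 markers, 10 had a region within 1 kb of a gene start or end in both the Scd1-deficient and the control DN3 list, and 6 in each naive list, where Ptcra, Rag1, Rag2 and Dntt had none. All 10 naive markers were called in all 4 lists. Zbtb7b, the factor of the CD4 lineage, had a −log10 q of 7.75 in Scd1-deficient and 30.2 in control DN3 cells. In the naive Scd1-deficient and control lists it had 140 and 208. These values belong to 4 lists and their sizes are not comparable between them. Ms4a1, Csf1r and Ncr1, which mark B cells, macrophages and NK cells, had none in any list. Of 6 B cell markers 3 were called in each DN3 list, of 6 myeloid markers 4 in the Scd1-deficient and 3 in the control DN3 list, and of 5 NK and innate markers 4 in each. The strongest of each kind were Ebf1 (135 in Scd1-deficient and 141 in control DN3 cells), Cebpa (152 and 133) and Id2 (221 and 183). The markers of other cell types were thus not all closed in DN3 cells. The part of mature T cells in the control calls was not tested. None of the 10 naive marker genes had a wide control-only region in its body or within 10 kb.

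The naive CD4 lists were not used to choose the regions. Of the 813, 163 (20%, 17.4 to 22.9) were called in naive Scd1-deficient cells and 165 (20.3%, 17.7 to 23.2) in naive control cells, against 69.2% and 66.2% of all wide control DN3 regions. Both naive lists held 127 (15.6%) and neither 612 (75.3%). Among regions with a counterpart, 88.3% at a gene start or end were called in naive Scd1-deficient cells, and 62.0% inside genes. Weak DN3 regions were less often called in naive cells in general, so the shares of the control-only regions are also given by strength. Width and place were not matched in these classes, and the median width was 596 bp against 908 bp with a counterpart. At a −log10 q from 5 to 10, 17.8% (14 to 22.2) were called in naive Scd1-deficient cells, against 30.3% (28.4 to 32.2) of wide control regions with a counterpart. From 10 to 20 it was 24.6% (18.9 to 31.4) against 41.1% (39.8 to 42.4), and from 20 to 60 it was 40.4% (28.6 to 53.3) against 59.4% (58.6 to 60.1). In the naive control list the shares were 18.9% against 28.1%, 17.9% against 37.5% and 45.6% (33.4 to 58.4) against 54.2%. Under 5 they were 15.1% against 25.8% in the Scd1-deficient and 18% (13.6 to 23.4) against 23.0% (19.3 to 27.2) in the control naive list, where the intervals overlap. The regions called in Scd1-deficient DN3 cells alone were in the naive lists at 26.4% (23.0 to 30.1) and 24.9% (21.6 to 28.5).

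**Figure D5:**
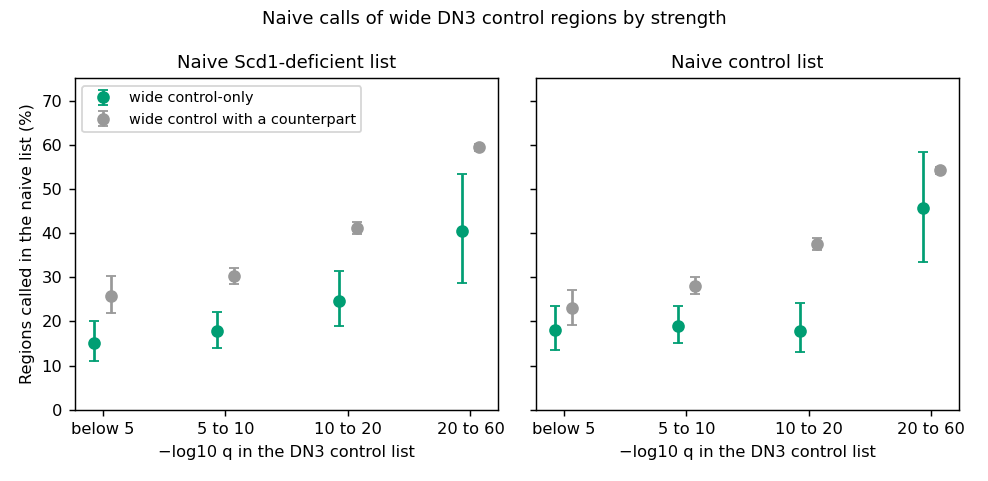
Share of wide DN3 control regions (y axis, %) called in the naive Scd1-deficient list (left panel) and the naive control list (right panel), by −log10 q in the DN3 control list (x axis). Points with Wilson 95% intervals show the regions without and with a counterpart in Scd1-deficient DN3 cells; in every class those without one are lower, with overlapping intervals in the naive control list under 5 and from 20 to 60.

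Being called at all in a naive list went mostly with a modest region there. The naive regions over the 163 had a median −log10 q of 13.7, against 72.7 for DN3 regions with a counterpart, and those over the 165 had 16.8 against 93.2. In 23 of the 127 called in both, the naive region was at or above the median of its list in both. That is 18.1% (12.4 to 25.7), against 63.2% of the 32311 wide control regions with a DN3 counterpart that were called in both. For Scd1-deficient-only regions it was 22 of 128. The strongest of these, picked after their values were seen, included an intergenic region 12.4 kb from an end of Ccr7, the lymph node homing receptor gene (chr11:99131264-99131785), with 130 in the Scd1-deficient and 155 in the control naive list. In DN3 controls it had a −log10 q of 8.51, and a Scd1-deficient DN3 region lay 144 bp away. Others were inside Trak1 (236 and 359), inside Pecam1, an adhesion receptor gene (196 and 243), inside Inpp5f (134 and 242), and 18.4 kb from Izumo1r, the folate receptor 4 of T cells (114 and 135).

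Regions called in DN3 controls and in only 1 naive list were split nearly evenly, with 36 in the Scd1-deficient list (4.43%) and 38 in the control list (4.67%), against 4.51% and 1.45% of all wide control DN3 regions. The Scd1-deficient list thus held 48.6% (37.6 to 59.8) of the 74 called once, and 76.3% (74.8 to 77.8) of 2916 for regions with a counterpart. By strength this share was 34.8% (18.8 to 55.1) under 5, 42.9% (26.5 to 60.9) from 5 to 10, 92.9% (68.5 to 98.7) from 10 to 20 and 33.3% (12.1 to 64.6) from 20 to 60, and in the third class the Scd1-deficient list held 13 of 14. When the longer naive list was cut to the length of the shorter by strength, the counts were 15 and 51, or 22.7%, against 47.7% for regions with a counterpart. The naive Scd1-deficient list is longer (51297 against 46576 regions) and has a lower background pileup (3.65 against 5.12 fragments).

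The strongest called in DN3 controls and in naive Scd1-deficient cells, after Nudt9, lay inside Slc37a1 (28.1 in DN3 controls), Baz1a (22.0), at the Msh4 start and inside Marchf6 (15.5), with −log10 q of 7.39, 11.4, 6.64 and 7.55 in the naive list. The strongest called in both control libraries alone, after Nfatc3 and 4921504E06Rik, lay inside Ptprb (38.1), a vascular phosphatase gene, inside Rmnd5a, 25.3 kb from the start of Cd8a (23.2, chr6:71398772-71399661), and inside Vat1l (20.8). Their naive control regions had 17.0, 9.78 and 3.84. Cd8a encodes the alpha chain of the coreceptor CD8.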

How the data were processed

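Peak lists of 4 ATAC-seq libraries were analysed, 1 for each genotype and cell type. Trimmomatic, BWA, MACS2 and mm10 are named in the submitters' processing notes, while their settings, versions, duplicate handling and Tn5 shift are not given in these sources. The authors called each deposited list on 1 library. Each deposited peak has a score (10 times its −log10 q), a fold (ratio of summit pileup to local background), a −log10 p and a −log10 q, which were used to describe, rank or filter within a list. Whole fragments at the summit were recovered from the deposited fold and −log10 p for 100% of peaks, within a tolerance of 0.05. No total read count was used here, and depth was read from the lowest local background.

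Overlap meant at least 1 bp. Genes came from a RefSeq table of GRCm38.p6 (mm10): of 21631 protein-coding genes, 17274 had a listed start and the other 4357, all of chromosome 18 among them, were placed by either end. Exons and introns were not annotated. Shares have Wilson 95% intervals that cover counting error only, and no test was possible with 1 library in each group. The members and 15 gene lists were chosen with earlier results of these data known. Named regions are the 10 strongest, the 10 widest, the 10 strongest at gene starts or ends, the 5 strongest in each naive pattern, up to 3 genes per list, genes with 3 or more, and those at the limits or within 5 Mb of Scd1. Regions named for their promoter, hairpin, strong naive call or lone place at a gene were picked after their values were seen. The overlap, distance and pileup steps were tested on simulated data with Python 3.11.15, pandas 2.3.3, numpy 2.4.6 and scipy 1.17.1. Alternatives covered the width, the overlap, the strength of regions, the list length and the gene window. Some genes of the lists are not reported here by name.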

Additional observations from a re-analysis of the deposited data

Results flagged for a closer look

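Of the wide regions called in DN3 controls and not in Scd1-deficient DN3 cells, 36 showed the opposite order in naive CD4 T cells, with a region in the Scd1-deficient list and none in the control list. They were picked out because the genotype that held the region differed between the cell types. This difference was not tested, since each group has 1 library, and the share was 4.43% here, against 4.51% of all wide DN3 control regions. In the same set, 38 regions were called in naive control cells alone.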

How the results depend on the processing

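Of 41 recomputed values, 26 stayed within 1.5 times the count or within the counting interval of the reported share or median. The number of regions was 1726 with a minimum width of 400 bp, 121 with 750 bp and 236 with a control −log10 q of at least 10. With that last limit the shares called in naive Scd1-deficient and control cells were 28.4% and 24.6%, the share at a gene start or end 5.51% and the median −log10 q 14.6. At 750 bp 52.9% lay inside a gene. With the DN3 summit required inside the naive region, 17.0% were called in naive Scd1-deficient cells, and with naive lists of the same length 15.9%. With naive regions of a −log10 q of at least 10, the shares were 11.6% in Scd1-deficient and 13.8% in control cells, against 63.1% and 61.9% for wide regions with a counterpart. A gene window of 2 kb gave 9.96% at a gene start or end, and all annotated genes gave 12.9% there and 60.1% inside a gene. The limits of width and strength cut the set by construction, and for the other settings the cause was not tested. No paired analysis was possible because each group has 1 library, and no replicate could be left out. A weak region near the calling limit can be missed in one library at this depth, and an absent call does not show closed chromatin.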

Other observations

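Wide control-only regions were spread over all chromosomes compared. By chromosome they made up from 1.2% (chromosome 13) to 2.1% (chromosome 16) of the wide DN3 control regions of the autosomes, and 0.775% (7 of 903, Wilson 95% interval 0.376 to 1.59) of those of the X chromosome. On the X chromosome 6 of 872 wide Scd1-deficient DN3 regions (0.688%) were without a control counterpart. At the T cell receptor loci, 3 of 44 wide control regions at Tcra, 1 of 29 at Tcrb and 0 of 17 at Tcrg were control-only. Scd1-deficient-only regions numbered 1, 1 and 0. Over all wide regions the shares were 1.62% control-only and 1.24% Scd1-deficient-only, and these counts are too small to set a locus apart.

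A 1018 bp control-only region (chr11:68220855-68221872), with a −log10 q of 9.76, lay over the hairpin of Mir6406. Others lay 32 bp from the hairpin of Mir1962 (11.3), 365 bp from Mir1936 (3.57) and 592 bp from Mir7033 (2.71). Regions within 2 kb of the hairpins of Mir196a-2, Mir129-2 and Mir7-2 had 8.73, 7.73 and 12.3, and the last of these was called in both naive lists. Of the 748 genes with such a region, 41 had no wide DN3 region with a counterpart within 10 kb. The strongest of those, besides Stk31, were Ttc23l (37.9), Fgg (21.7), which encodes a fibrinogen chain of liver, and Vat1l (20.8).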
